A study of Mus musculus with 6 samples.

Results

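Paneth cells (PCs) fill their granules with defensins and with other secreted proteins, and the 10 genes described here encode products other than defensins. They were chosen by gene name among the 48440 genes measured: the lysozymes *Lyz1* and *Lyz2*, the pentraxins *Mptx1* and *Mptx2*, the protease *Mmp7*, the ribonuclease *Ang4*, the lectin *Itln1*, the phospholipase *Pla2g2a*, the serine protease *Habp2* and the lipase-related *Pnliprp2*. All 10 had a mean of at least 1 FPKM (fragments per kilobase of transcript, relative to all mapped fragments of a library), so all 10 are among the 14240 genes tested.

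RNA-seq was performed on small intestinal adenoma polyps of *Apc* Min mice, 3 with genetic PC depletion (PC del) and 3 controls (WT), with 1 library per mouse. All mice were on a C57BL/6 background, were older than 42 days and carried the *Apc* Min allele, which leads to intestinal adenomas. Both genotypes also carried a diphtheria toxin A cassette behind a floxed stop (*Rosa26* iDTA/WT). The PC del mice alone had the *Defa4-Cre* knock-in, made in 129/svJ embryonic stem cells, which removes the stop in front of the toxin in cells that use the *Defa4* promoter. The WT controls were littermates without Cre. Libraries are named QC4, QC5 and QC6 (WT) and QC3, QC8 and QC10 (PC del), and each rests on 5.407 to 5.876 gigabases of aligned sequence. Y-linked genes were high in 1 library of each genotype, WT QC6 and PC del QC3. QC6 also stood apart from the other libraries, with a weight of 0.237 in limma's array quality weights against 0.634 to 3.09 elsewhere.

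PCs sit at the base of small intestinal crypts and release their granules into the crypt lumen, where enzymes and binding proteins act on bacteria beside the defensins. Lysozyme cleaves the bacterial cell wall, secreted phospholipase attacks bacterial membranes, lectins and pentraxins bind microbial surfaces, and Mmp7 cuts mouse prodefensins into their active form. Several of these genes are also known outside PCs: *Lyz2* in macrophages and neutrophils, *Itln1* and *Ang4* in goblet cells, *Mmp7* in intestinal tumor cells, and *Pnliprp2* in the exocrine pancreas.

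The granule products differed among themselves in how PC del and WT adenomas compared. The lysozymes were the members whose groups did not overlap, with every PC del adenoma below every WT adenoma: *Lyz1* stood at 51.5% of its WT mean and *Lyz2* at 78.1%. *Mptx2* and *Itln1* had lower PC del means (47.8% and 65.1% of WT) with overlapping groups. *Mmp7* and *Pla2g2a* stood at 82.3% and 90.6% of WT. *Ang4*, *Pnliprp2* and *Mptx1* varied more between mice of 1 genotype than between genotypes, and *Habp2* stood at 132% of its WT mean.

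On the log2(FPKM + 1) scale, 8 of the 10 genes had a lower mean in PC del, compared with 36.9% of all genes tested, and their median log2 fold change was -0.35 against 0.042 over all genes. *Ang4* is counted among the 8, although its mean FPKM was 101% of WT. The groups did not overlap in 2 genes that were lower in PC del and in 0 that were higher. Over all genes the shares lower and higher without overlap were 1.54% and 6.00%. With each library centred on its median, the same 2 genes separated, and the shares over all genes were 3.27% and 4.38%. With limma and Benjamini-Hochberg adjustment over all 14240 genes, 0 of the 10 passed an adjusted p of 0.05, a call made for 0.0140% of genes (2 genes, neither of them a granule product). At an unadjusted limma p under 0.05 there were 4 (*Lyz1*, *Lyz2*, *Mptx2* and *Itln1*), all lower in PC del. Over all 14240 genes, 481 passed this limit in either direction, and 0.681% passed it and were lower in PC del. An exact permutation test of 3 mice against 3 cannot give a p below 0.1. All p-values rest on these 6 mice, and the limma variance of each gene is drawn toward a trend over all genes tested. In bulk tissue fewer PCs and less RNA per PC cannot be told apart.

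**Figure D1:**
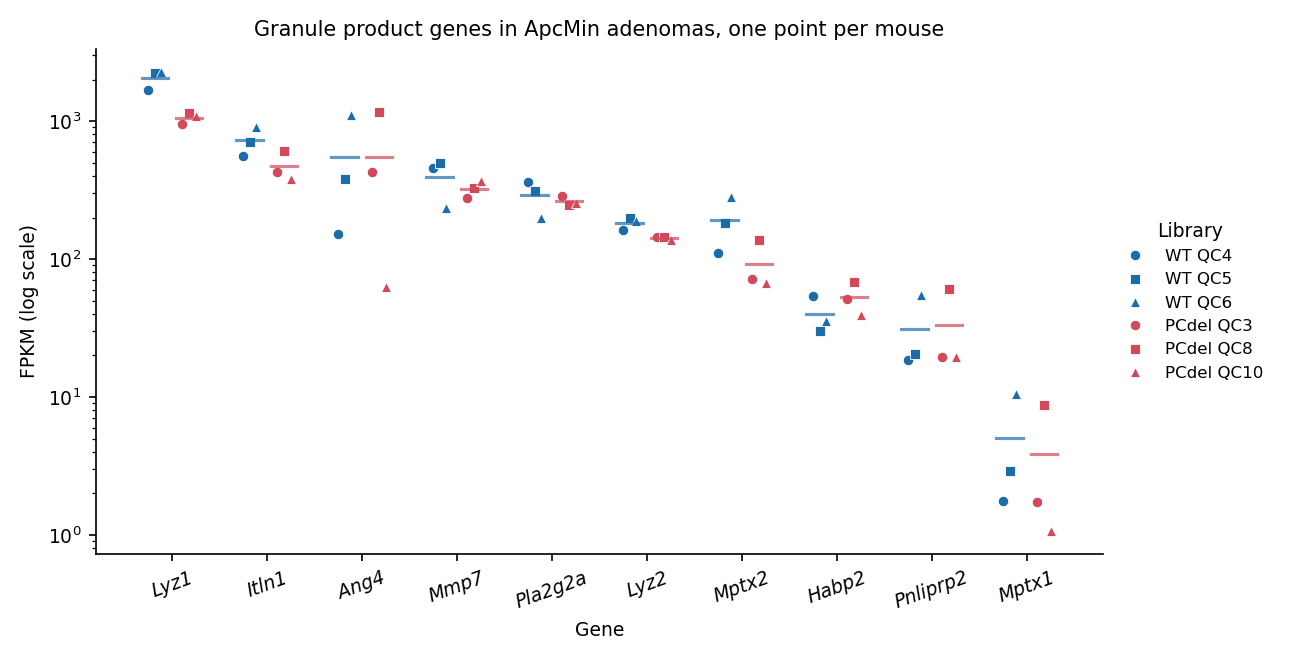
FPKM of each granule product gene (log axis) in the 6 adenoma libraries, WT in blue and PC del in red, 1 point per mouse, with a line at the mean of the 3 mice of a genotype. *Lyz1* and *Lyz2* show PC del points wholly below WT points, and *Ang4* spans 62.3 to 1173 FPKM within PC del.

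*Lyz1*, the PC lysozyme (chr10:117287796-117292868, minus strand, GRCm38), was the most abundant of the 10 by the mean of either genotype, although *Ang4* stood above it in PC del QC8. It was expressed at 1672, 2229 and 2281 FPKM in WT QC4, QC5 and QC6 and at 950.3, 1148 and 1082 FPKM in PC del QC3, QC8 and QC10. The PC del values lay close together and all below the lowest WT value. The means were 2060.3 ± 337.7 FPKM in WT and 1060.1 ± 100.7 FPKM in PC del (SD, 3 mice each), a log2 fold change of -0.95 ± 0.18 (SE; 95% interval -1.37 to -0.53). The limma p of 0.00121 ranked 16 of the 14240 genes and became 0.979 after Benjamini-Hochberg adjustment. The exact permutation p, two-sided here and throughout, was 0.1. *Lyz1* was thus lower without being lost, and it ranked among the 57 most abundant genes in every library.

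*Lyz2*, the lysozyme of macrophages and other myeloid cells, lies 5521 bases from *Lyz1* (chr10:117277334-117282274, minus strand). Its level was 161.1, 197.6 and 189.3 FPKM in WT QC4, QC5 and QC6, and 144.3, 145.3 and 138.1 FPKM in PC del QC3, QC8 and QC10. The groups again did not overlap, but the step was smaller, from 182.7 ± 19.1 to 142.6 ± 3.89 FPKM (SD, 3 mice each). Its log2 fold change was -0.35 ± 0.12 (SE; 95% interval -0.63 to -0.07), with a limma adjusted p of 1.0 and an exact permutation p of 0.1. With each library centred on epithelial genes, the *Lyz2* groups overlapped while those of *Lyz1* did not, and the *Lyz2* log2 fold change was -0.39.

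Within a library, *Lyz1* was 10.4, 11.3 and 12.05 times as abundant as *Lyz2* in WT QC4, QC5 and QC6, and 6.59, 7.90 and 7.83 times in PC del QC3, QC8 and QC10. This ratio does not depend on library scaling, and WT and PC del were again apart (exact permutation p = 0.1, 0.3 after adjustment over 9 ratios to *Lyz1*). *Lyz1* itself was lower without overlap, and most genes separated from it in the same way. Of the 14239 other genes tested, the level per *Lyz1* was higher in PC del without overlap for 87.5% and lower for 0.0913%. The transcripts share sequence: 34.2% of the 31-mers of *Lyz1* occur in *Lyz2*, and 32.8% of those of *Lyz2* in *Lyz1*. Reads from the shared stretches can belong to either gene, and since *Lyz1* is the more abundant, the *Lyz2* values are uncertain by an amount that was not measured.

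Markers of macrophages, a known source of *Lyz2*, went the other way. All 10 macrophage genes tested had a higher mean log2 value in PC del (9 of 10 without QC6), as did 8983 of all 14240 genes tested. The median log2 fold change of the macrophage genes was 0.35, against 0.042 over all genes. The groups of 5 (*Adgre1*, *Fcgr1*, *C1qb*, *C1qc* and *Cd14*) were higher without overlap, compared with 6.00% of all genes. Their summed level was 119.1, 117.9 and 131.1 FPKM in WT QC4, QC5 and QC6 and 151.1, 169.4 and 147.3 FPKM in PC del QC3, QC8 and QC10. *C1qa*, the most abundant over all 6 libraries, averaged 34.4 FPKM in WT and 41.1 FPKM in PC del, where *C1qb* averaged 41.3 FPKM. Of 8 neutrophil genes, *Elane*, *Ngp* and *Camp* were listed at 0 in every library, and *S100a9*, the most abundant over all 6 libraries, ranged from 1.20 to 7.79 FPKM. The 4 neutrophil genes tested had a higher mean log2 value in PC del (median log2 fold change 0.15), but 3 of the 4 had a lower one without QC6 (median -0.13). The part of these cells in the *Lyz2* level was not tested.

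The 2 lysozyme promoters are shown because both genes were lower in every PC del adenoma than in every WT adenoma. The 200 bases that end 50 bases before the RefSeq start (GRCm38.p6, minus strand, written 5′ to 3′) are chr10:117292919-117293118 for *Lyz1* and chr10:117282323-117282522 for *Lyz2*. Aligned with each other, 147 of 183 paired bases were identical (80.3%). Capitals mark bases that differ between the pair or have no partner, and about as many of them lay in the first 50 bases (26 of 53 in *Lyz1* and 25 of 53 in *Lyz2*) as in the other 150 together.
Lyz1: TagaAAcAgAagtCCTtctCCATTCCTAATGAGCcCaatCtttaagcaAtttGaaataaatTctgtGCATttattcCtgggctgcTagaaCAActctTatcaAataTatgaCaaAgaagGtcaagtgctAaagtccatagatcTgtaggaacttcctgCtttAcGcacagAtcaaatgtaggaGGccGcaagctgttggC
Lyz2: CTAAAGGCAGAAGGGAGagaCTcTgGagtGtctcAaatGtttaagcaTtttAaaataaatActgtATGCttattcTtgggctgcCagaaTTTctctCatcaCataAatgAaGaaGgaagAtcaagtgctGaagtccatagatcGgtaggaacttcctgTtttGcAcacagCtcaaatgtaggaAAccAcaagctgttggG

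The mucosal pentraxins are soluble proteins that bind bacteria, and *Mptx2* was by far the more abundant of the pair. *Mptx2* (chr1:173274382-173277777, minus strand) was expressed at 111.1, 184.1 and 281.3 FPKM in WT QC4, QC5 and QC6 and at 71.5, 137 and 66.9 FPKM in PC del QC3, QC8 and QC10. QC3 and QC10 were below every WT library, while QC8 lay above the lowest WT library, QC4. The means were 192.1 ± 85.4 and 91.8 ± 39.2 FPKM (SD, 3 mice each), a log2 fold change of -1.04 ± 0.40 (SE; 95% interval -1.99 to -0.08). The limma p was 0.038 (1.0 after Benjamini-Hochberg adjustment) and the exact permutation p was 0.2.

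*Mptx2* followed the summed level of the defensins closely from mouse to mouse. As a percent of the summed FPKM of all genes whose symbol starts with Defa, it was 2.41, 2.19 and 1.93 in WT QC4, QC5 and QC6 and 2.54, 2.35 and 2.03 in PC del QC3, QC8 and QC10. The groups overlapped and the range over all 6 mice was narrow, although the defensin sum itself ran from 2819 FPKM in QC3 to 14610 FPKM in QC6. For *Lyz1* the same percent ran from 15.6 to 36.3, and for *Ang4* from 1.89 to 20.1. The sum is led by abundant genes such as *Defa24*, and *Mptx2* did not follow every defensin. Among the PC del libraries *Mptx2* was highest in QC8, where *Defa21* was lowest (20.2 FPKM, against 35.4 in QC3 and 28.0 in QC10).

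*Mptx1* (chr1:174330518-174332873, plus strand) lies 1.05 Mb from *Mptx2* and was the least abundant of the 10. It stood at 1.75, 2.89 and 10.5 FPKM in WT QC4, QC5 and QC6 and at 1.73, 8.70 and 1.07 FPKM in PC del QC3, QC8 and QC10. QC6 and QC8, 1 library of each genotype, were high, and the others were low. The log2 fold change was -0.39 ± 0.72 (SE), with an interval of -2.12 to 1.34 that spans both directions, and it was 0.22 without QC6 and 0.05 without QC10. Of the 31-mers of *Mptx1*, 25.0% occur in *Mptx2*, so the reads of this weakly expressed gene are uncertain in their assignment.

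The pentraxin promoters are shown because the pair share sequence but differ in level and in their pattern over mice. The windows are chr1:174330268-174330467 for *Mptx1* (plus strand) and chr1:173277807-173278006 for *Mptx2* (minus strand), placed and marked as for the lysozymes. Of 179 paired bases, 153 were identical (85.5%).
Mptx1: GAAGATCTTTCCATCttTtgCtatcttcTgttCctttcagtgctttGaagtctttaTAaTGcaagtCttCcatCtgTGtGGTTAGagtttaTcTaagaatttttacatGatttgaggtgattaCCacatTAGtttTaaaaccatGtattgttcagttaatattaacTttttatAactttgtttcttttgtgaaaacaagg
Mptx2: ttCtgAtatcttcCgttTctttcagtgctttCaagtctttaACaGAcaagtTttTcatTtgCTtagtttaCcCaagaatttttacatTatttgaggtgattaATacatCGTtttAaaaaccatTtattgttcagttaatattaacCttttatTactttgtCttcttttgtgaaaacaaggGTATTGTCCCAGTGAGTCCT

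Promoter entries in the RefSeq table matched 9 of the 10 genes, all but *Pla2g2a*. The 250 bases before each start were searched on both strands for TATAA and for CTTTGA, the core that Tcf factors of the Wnt pathway bind. The latter occurred in *Mptx1*, *Pnliprp2* and 1 of the 2 entries of *Mmp7*, and it occurs in 13.8% of 32851 promoters. The TATAA letters occurred in *Itln1*, *Mptx1*, *Mptx2* and 1 of the 2 entries of *Mmp7*, compared with 22.8% of all promoters. On the coding strand they began 224 bases before the start in *Itln1* and 49 in *Mptx2*. In *Mptx1* they began 196, 80 and 29 bases before it (197 and 81 on the opposite strand), and in *Mmp7* 123 and 26. These are matches of letters only.

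*Mmp7* encodes matrilysin, which activates the defensins of the mouse (chr9:7692090-7699585, plus strand). It was expressed at 456.0, 493.5 and 234.0 FPKM in WT QC4, QC5 and QC6 and at 279.2, 328.8 and 365.9 FPKM in PC del QC3, QC8 and QC10. The WT library with the most defensin RNA, QC6, had the lowest *Mmp7* value of all 6, and the groups overlapped through this library alone. The means were 394.5 ± 140.2 and 324.6 ± 43.5 FPKM (SD, 3 mice each), and the log2 fold change was -0.22 ± 0.30 (SE; 95% interval -0.92 to 0.49). It was -0.55 without QC6, when all PC del values lay below WT, as they then did for 12.3% of all genes; it was -0.07 without QC4, -0.02 without QC5 and -0.11 without QC3. Per unit of *Mmp7*, the *Lyz1* level was 3.67, 4.52 and 9.74 in WT QC4, QC5 and QC6 and 3.40, 3.49 and 2.96 in PC del QC3, QC8 and QC10. These ratios did not overlap (exact permutation p = 0.1, adjusted 0.3), with QC4 and QC8 close to each other and QC6 far above the rest, and 87.5% of all genes separated from *Lyz1* in this direction. The log2 difference of *Mmp7* per *Lyz1*, PC del minus WT, was 0.73 in all libraries and 0.31 without QC6.

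Other matrix metalloproteinases were measured beside *Mmp7*. QC6 was the lowest library for *Mmp2*, *Mmp3* and *Mmp14*, as it was for *Mmp7*, but not for *Mmp9*, *Mmp10* and *Mmp13*. *Mmp13*, a collagenase, was at 10.1, 7.94 and 10.8 FPKM in WT QC4, QC5 and QC6 and at 30.5, 26.9 and 13.3 FPKM in PC del QC3, QC8 and QC10, and its groups did not overlap (limma adjusted p = 1.0). Among 16 tested relatives of the granule product genes, 2 did not overlap, both higher in PC del (*Mmp13* and *Plau*, the urokinase protease), beside 6.00% of all genes, and the median log2 fold change was 0.24, or 0.09 without QC6. *Mmp10* was the most abundant relative, at 61.7 ± 12.5 FPKM in WT and 95.3 ± 32.1 FPKM in PC del (SD, 3 mice each), with overlapping groups.

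*Pla2g2a*, the secreted phospholipase of PC granules (chr4:138831857-138835186, plus strand), is annotated as a polymorphic pseudogene in GENCODE and as a transcribed pseudogene in RefSeq; the gene is known to be disrupted in C57BL/6 mice. Its RNA was nevertheless abundant. It stood at 363.8, 310.7 and 197.0 FPKM in WT QC4, QC5 and QC6 and at 287.7, 245.9 and 256.0 FPKM in PC del QC3, QC8 and QC10. QC6 was again the lowest library, and the PC del values lay inside the WT range. The log2 fold change was -0.10 ± 0.23 (SE; 95% interval -0.66 to 0.46), and with single libraries left out it ran from -0.36 without QC6 to 0.09 without QC4. Without QC6 all PC del values lay below WT, as for *Mmp7*.

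The whole of *Pla2g2a* (3330 bases) lies within *Pla2g5* on the opposite strand. *Pla2g5* was listed at 4.76 to 11.3 FPKM. No 31-mer of the annotated *Pla2g2a* transcripts, on either strand, occurs in transcripts of another gene (0 of 927), so the spliced RNAs of the pair share no such stretch, while reads of unspliced *Pla2g5* RNA in this interval cannot be told apart without strand. *AV064505*, opposite *Mmp7*, and *Nrap*, opposite *Habp2*, hold 9.06% and 7.2% of the 31-mers of these genes, and they were at most 1.36 and 0.482 FPKM. *Mmp7* and *Pla2g2a* kept the tightest ratio of the 45 pairs among the 10 genes, between 0.970 and 1.59 in all 6 libraries, with a standard deviation of 0.244 on the log2 scale against a median of 0.821 over the pairs.

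*Itln1* encodes intelectin, a lectin that binds microbial sugars (chr1:171518122-171535294, minus strand). It was expressed at 561.9, 701.0 and 912.6 FPKM in WT QC4, QC5 and QC6 and at 427.7, 608.3 and 381.2 FPKM in PC del QC3, QC8 and QC10. Only QC8 among the PC del libraries reached the WT range, above QC4. The means were 725.2 ± 176.6 and 472.4 ± 119.9 FPKM (SD, 3 mice each), a log2 fold change of -0.62 ± 0.25 (SE; 95% interval -1.21 to -0.03). The limma p was 0.0417 (1.0 after Benjamini-Hochberg adjustment) and the exact permutation p was 0.2. As a percent of the summed FPKM of the 10 genes, *Itln1* was 15.8, 15.4 and 17.2 in WT QC4, QC5 and QC6 and 16.1, 15.5 and 15.8 in PC del QC3, QC8 and QC10. No other member held so even a share, and *Lyz1* took 43.0% to 49.0% of the sum in WT and 29.3% to 44.8% in PC del.

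*Ang4*, an antimicrobial ribonuclease of the angiogenin family (chr14:51763878-51773590, minus strand), varied most. It stood at 152.9, 381.0 and 1108 FPKM in WT QC4, QC5 and QC6 and at 425.4, 1173 and 62.3 FPKM in PC del QC3, QC8 and QC10. The highest and the lowest value of all 6 libraries, 18.8-fold apart, were both in PC del mice. The means were 547.4 ± 499.0 and 553.6 ± 566.4 FPKM (SD, 3 mice each), and the log2 fold change of -0.35 had a standard error of 1.15 (95% interval -3.10 to 2.41). It became 0.38 without QC6 and 0.81 without QC10, and -1.29 without QC8. Of its 31-mers 13.8% occur in other genes, 9.28% in *Ang5*, which was listed at 0 in every library.

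*Habp2*, a hyaluronan-binding serine protease (chr19:56287137-56320822, plus strand), had the highest PC del mean relative to WT. It was at 54.3, 30.2 and 35.4 FPKM in WT QC4, QC5 and QC6 and at 51.0, 68.1 and 39.4 FPKM in PC del QC3, QC8 and QC10. The groups overlapped, with WT QC4 above 2 of the 3 PC del libraries. The log2 fold change was 0.40 ± 0.27 (SE; 95% interval -0.24 to 1.05; limma adjusted p = 1.0). It was 0.64 without QC4, when the groups did not overlap (as for 13.4% of all genes, higher in PC del), and 0.23 without QC5 and 0.21 without QC8. Against *Lyz1* the groups separated in all libraries, as for most genes: *Lyz1* was 30.8, 73.7 and 64.5 times as abundant as *Habp2* in WT QC4, QC5 and QC6 and 18.6, 16.9 and 27.4 times in PC del QC3, QC8 and QC10 (exact permutation p = 0.1, adjusted 0.3).

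*Pnliprp2*, a lipase relative that acts on galactolipids and phospholipids (chr19:58759723-58777533, plus strand), lies 2.44 Mb from *Habp2*. It stood at 18.5, 20.5 and 54.8 FPKM in WT QC4, QC5 and QC6 and at 19.6, 60.6 and 19.4 FPKM in PC del QC3, QC8 and QC10. As with *Mptx1*, QC6 and QC8 were high and the other 4 libraries lay close together. The log2 fold change was 0.05 ± 0.56 (SE; 95% interval -1.29 to 1.39). It was -0.23 without QC4, -0.16 without QC5 and -0.48 without QC8, and -0.001 with each library centred on its median.

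Of 12 pancreatic acinar genes, 7 were listed at 0 in every library, among them *Pnlip*, *Cpa1*, *Prss2* and *Cela3b*. The part of acinar RNA in the *Pnliprp2* level was not tested. The most abundant acinar gene over all 6 libraries, *Clps*, was at 82.9, 93.0 and 173 FPKM in WT QC4, QC5 and QC6 and at 68.7, 98.9 and 39.1 FPKM in PC del QC3, QC8 and QC10. Its log2 fold change was -0.77, while the other 2 acinar genes tested, *Cela1* and *Pnliprp1*, were at 0.25 and 0.14. Without QC6 all 3 had a lower mean log2 value in PC del, and their median log2 fold change was -0.14, against 0.14 in all libraries. In PC del *Cela1* had the higher mean, 79.9 FPKM against 68.9 FPKM for *Clps*. *Clps* is also among the other reported PC products. The 12 genes summed to 180.2 to 227.5 FPKM in WT and 121.3 to 191.6 FPKM in PC del. Nearly all of this sum came from the 3 genes that averaged at least 1 FPKM.

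**Figure D2:**
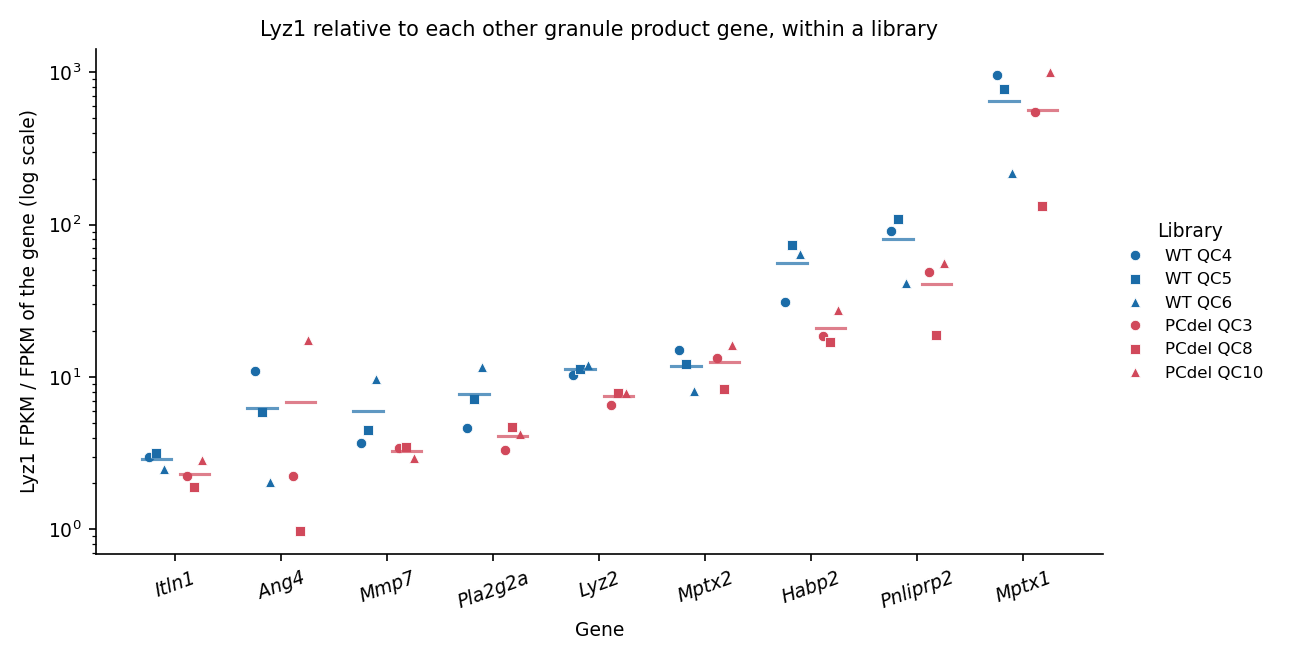
FPKM of *Lyz1* divided by the FPKM of each other granule product gene within a library (log axis), WT in blue and PC del in red, 1 point per mouse, with a line at the mean of the 3 mice of a genotype. The WT and PC del points are apart for *Lyz2*, *Mmp7* and *Habp2*; for *Ang4* the ratio spans 0.979 to 17.4 within PC del.

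By mean log2 ratios, *Lyz1* was lower in PC del relative to 8 of the 9 other genes. For *Ang4*, 1 of the 8, the mean ratio itself went the other way, with 6.28 times as much *Lyz1* in WT and 6.86 times in PC del. The exception was *Mptx2*, for which the log2 difference of *Mptx2* per *Lyz1* was -0.10 and changed sign without QC6 or QC10. For 3 of the 9 the ratio groups did not overlap, a smaller part than the 87.5% of all genes that were higher per *Lyz1* without overlap, and no adjusted exact permutation p was below 0.3. The log2 difference of each gene per *Lyz1*, PC del minus WT, was 0.60 for *Lyz2*, 0.73 for *Mmp7*, 0.85 for *Pla2g2a*, 0.33 for *Itln1*, 1.0 for *Pnliprp2* and 1.36 for *Habp2*. Each of these 6 kept its sign with any 1 library left out, while those of *Mptx1* (0.37) and *Ang4* (0.60) did not. The sizes moved: those of *Mmp7* and *Pla2g2a* were 0.31 and 0.51 without QC6, and those of *Itln1* and *Pnliprp2* were 0.19 and 0.51 without QC8.

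The order of the genes by level was nearly the same in both genotypes. In WT the order by mean FPKM was *Lyz1*, *Itln1*, *Ang4*, *Mmp7*, *Pla2g2a*, *Mptx2*, *Lyz2*, *Habp2*, *Pnliprp2* and *Mptx1*. Ranges of neighbours overlapped from *Itln1* down to *Lyz2* and between *Habp2* and *Pnliprp2*. Between neighbours, only the steps below *Lyz1*, below *Lyz2* and below *Pnliprp2* were separate. In PC del, *Ang4* and *Itln1* changed places, as did *Mptx2* and *Lyz2*. There the *Ang4* range reached that of *Lyz1*, and the *Lyz2* and *Mptx2* ranges did not overlap.

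Together the 10 genes came to 3553, 4550.2 and 5304 FPKM in WT QC4, QC5 and QC6 and to 2659, 3924 and 2412 FPKM in PC del QC3, QC8 and QC10. QC8 lay above QC4, so the groups overlapped, and the PC del mean was 67.1% of WT. Without *Lyz1* it was 80.5%. The summed defensin genes were at 43.2% of WT, also with overlapping groups. All 15 defensin genes tested had a lower mean log2 value in PC del (12 without QC6), compared with 36.9% of all genes, and their median log2 fold change was -1.59, or -0.97 without QC6. Of these, 7 (*Defa2*, *Defa5*, *Defa20*, *Defa21*, *Defa22*, *Defa26* and *Defa-ps6*) were lower without overlap, compared with 1.54% of all genes. Some of the 7 had nearly the same values, such as *Defa21* and *Defa22* (means of 240.5 and 231.9 FPKM in WT, 27.9 and 31.2 FPKM in PC del). Sequence shared among the defensins was not counted, so the 7 cannot be taken as separate results. *Defa24*, the most abundant, was at 2013, 3378 and 5850.2 FPKM in WT QC4, QC5 and QC6 and at 1266, 2569 and 1452 FPKM in PC del QC3, QC8 and QC10.

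*Itln1* and *Ang4* are also made by goblet cells, whose markers showed no common direction. Of 10 goblet genes, 5 had a lower and 5 a higher PC del mean, none without overlap, and the direction turned with the scaling: 7 were lower with each library centred on its median or without QC6, and 7 were higher with TPM or quantile normalization. Their summed level was 8349.7 to 10484 FPKM in WT and 8729.8 to 10048 FPKM in PC del, led by *Spink4* at a mean of 3192 FPKM in WT and 2625 FPKM in PC del. The goblet part in either gene was not tested.

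Other genes tied to PCs were counted in the same way, and the shares over all genes were 1.54% lower and 6.00% higher without overlap. Of 17 tested regulators and granule machinery genes, 0 were lower without overlap and 2 were higher (*Xbp1*, a factor of secretory cells, and *Tcf4*), with a median log2 fold change of 0.06, or -0.02 without QC6. The *Xbp1* groups were barely apart (164.3 FPKM in WT QC4, 165.0 FPKM in PC del QC8), with a log2 fold change of 0.11. *Cd24a*, a PC surface marker and the most abundant of the 17, averaged 357.6 FPKM in WT and 354.5 FPKM in PC del. Of 19 other reported PC products tested, *Wnt3* was lower without overlap and *Lbp* and *Tnf* were higher, and the median was -0.02, between -0.09 and 0.03 under other scalings. These genes were weakly expressed. *Wnt3* averaged 1.97 FPKM in WT and 0.984 FPKM in PC del, so it reached the minimum of 1 FPKM only through WT. *Lbp* averaged 2.11 FPKM in WT and 3.50 FPKM in PC del, and *Tnf* 1.13 and 1.98 FPKM. *Reg3b*, a lectin of PCs and enterocytes, led this list at 4703 ± 2347 FPKM in WT and 6005 ± 656 FPKM in PC del (SD, 3 mice each). Its groups overlapped, and WT QC6 stood at 2164 FPKM against 6792 and 5153 FPKM in WT QC4 and QC5.

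The 3 most abundant of the 10 genes (*Lyz1*, *Itln1* and *Ang4*) were compared with all others for a similar profile, by the root mean square difference of centred log2(FPKM + 1) over the 6 libraries. Closest to *Lyz1* were *Gsta1*, *Gsta2* and *Scgb2b15* (0.230, 0.236 and 0.238, where *Lyz1* itself varied by 0.502). Closest to *Itln1* were *Scgb2b15*, *2200002J24Rik* and *Paf1* (0.146, 0.170 and 0.170, against 0.421). Closest to *Ang4* were *Gsdmc2*, *Chil4* and *Gsdmc4* (0.357, 0.364 and 0.446, against 1.49). *Gsdmc2*, a gasdermin, was at 32.7, 100.4 and 173 FPKM in WT QC4, QC5 and QC6. In PC del QC3, QC8 and QC10 it was at 82.7, 279 and 21.1 FPKM. It was chosen for its likeness to *Ang4*, so high values of both in QC6 and QC8 follow from that choice.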

How the data were processed

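Total RNA from the adenomas was made into TruSeq libraries, sequenced on a HiSeq2500 and aligned by the authors with CLC Genomics Workbench 7; the settings of their MatLab normalization, the program behind the gene tables and the use of strand are not given in the sources used here. The authors deposited FPKM for each gene, scaled for length and sequencing depth. Their deposited TPM have the same sum in every library, and the deposited coverage of each gene is unscaled and served here for depth only. Gene positions match GRCm38. Read counts were not used here, so counting intervals and floors were not derived.

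Genotypes were compared by limma 3.58.1 (R 4.3.3; lmFit, eBayes with trend) on log2(FPKM + 1), which understates changes of weakly expressed genes, for the 14240 genes that averaged 1 FPKM or more, with Benjamini-Hochberg adjustment at 0.05. The fit was tested on simulated data. Single genes and ratios to *Lyz1* were compared by exact two-sided permutation tests (scipy 1.17.1). Groups were called overlapping unless all PC del values lay beyond all WT values. Shared 31-mers on either strand were counted in GENCODE vM21 transcripts, and promoters were taken from RefSeq (GRCm38.p6) and aligned with Biopython 1.88.

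Named genes were the 10 members and, from each gene list, the most abundant gene, those whose groups did not overlap and any gene past the adjusted threshold. For the 3 members with the highest mean, the 3 genes with the most similar profile were named too. Other genes named as listed at 0, by their lowest library or as further acinar genes were chosen after their values were seen. The members and lists were chosen with earlier results of these data known. Alternatives were no filter, a minimum of 5 FPKM, a pseudocount of 0.1, TPM, quantile normalization, libraries centred on their median or on epithelial genes, array quality weights, eBayes without trend, a Y-linked score as covariate and each library left out in turn. Leaving out QC6 and QC8 together was chosen after seeing the data.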

Additional observations from a re-analysis of the deposited data

How the results depend on the processing

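With 3 mice a genotype, no exact p could fall below 0.1. No paired analysis was possible because no label ties a WT mouse to a PC del mouse. No granule product gene passed the adjusted threshold under any alternative, the lowest limma adjusted p being 0.243 (*Lyz1*; its range was 0.243 to 1.0). The log2 fold changes of *Lyz1* (-1.09 to -0.74), *Lyz2* (-0.44 to -0.29), *Mptx2* (-1.38 to -0.71), *Itln1* (-0.81 to -0.44), *Mmp7* (-0.57 to -0.02) and *Habp2* (0.14 to 0.64) kept their direction in all 17 alternatives. With a minimum of 5 FPKM *Mptx1* was not tested. Between 6 and 9 of the 10 genes had a lower mean log2 value in PC del.

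The other directions did not hold, and the cause was not tested. With array quality weights, which weight QC6 least, the log2 fold change was 0.13 for *Mptx1* and 0.44 for *Ang4*, and with median centring it was -0.001 for *Pnliprp2*. With single libraries left out it ranged from -1.07 to 0.22 for *Mptx1*, -1.29 to 0.81 for *Ang4*, -0.36 to 0.09 for *Pla2g2a* and -0.48 to 0.53 for *Pnliprp2*. The log2 ratio difference to *Lyz1* ranged from -0.46 to 1.04 for *Mptx1*, -0.36 to 0.15 for *Mptx2* and -0.29 to 1.78 for *Ang4*.

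Genes past the adjusted threshold numbered 2 in all libraries. The count was 1 with no filter, 1 with median centring, 3 with array quality weights, 1 to 5 with single libraries left out, and 0 without QC6 and QC8. The number of granule product genes whose groups did not overlap was 1 with epithelial centring, when 1.13% of all genes were lower and 2.39% higher without overlap. It was 2 to 5 with single libraries left out, when these shares were 2.88% to 12.3% and 9.3% to 15.7%; the 5 were all lower without QC8, and 4 lower and *Habp2* higher without QC4. Without QC6 and QC8 it was 7, all lower in PC del, when 19.2% of all genes were lower without overlap; fewer libraries overlap less often by construction. The summed FPKM in PC del stayed between 56.7% and 74.0% of WT.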

Other observations

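Markers of the other cells in the adenomas give the setting of the granule product values. All 8 enterocyte genes had a lower mean log2 value in PC del, with a median log2 fold change of -0.29 and no gene without overlap, but this held for 3 of the 8 without QC6 (median 0.04) and for 5 with quantile normalization. Their summed level was 25093 FPKM in QC6, the library with the highest *Lyz1*, *Mptx2* and *Itln1*, and 9352 to 15149 FPKM in the other 5. *Apoa1* was the most abundant. General epithelial genes were lowest in QC6, at a sum of 4094 FPKM against 4854 to 6116 FPKM elsewhere, and *Krt8* led them. Of the 6, 1 had a lower mean log2 value in PC del (median log2 fold change 0.04) and 3 a lower mean FPKM, but on the log2 scale 4 were lower with each library centred on its median and all 6 without QC6 (median -0.16). The 4 smooth muscle genes, led by *Tagln*, all had a higher PC del mean (median log2 fold change 0.30). Over all 14240 genes tested, 8983 had a higher and 5257 a lower mean log2 value in PC del. The 4 crypt base stem cell genes, led by *Olfm4*, were split evenly, 2 lower and 2 higher, or 3 lower with median centring or without QC6. None of these lists had a gene whose groups did not overlap.

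Among the Y-linked genes, *Eif2s3y* was the most abundant. It was at 0.150, 1.14 and 21.2 FPKM in WT QC4, QC5 and QC6 and at 24.3, 0 and 0 FPKM in PC del QC3, QC8 and QC10. Its 2 high libraries, QC6 and QC3, had the lowest *Mmp7* values of the 6, while *Ang4*, *Mptx1* and *Pnliprp2* were high in QC6 and QC8. With a Y-linked score as covariate the *Mmp7* log2 fold change was -0.24, and -0.22 without it.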
